A study of Mus musculus and Homo sapiens with 12 samples.

Results

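The tRNAs described here are tRNA-Val-AAC, tRNA-Val-CAC and tRNA-Val-TAC, which carry valine, and tRNA-Ile-AAT and tRNA-Ile-GAT, which carry isoleucine, each named by its anticodon and given below without the prefix. All lines of the 12 count files with these names were taken, and tRNA-Ile-TAT, whose genes hold introns, was left out. In mouse embryonic fibroblasts (MEF), they numbered 17 of the 224 tRNA genes in the files and 4 of the 51 isoacceptors, the groups of genes that share an amino acid and an anticodon. In NTERT cells, an immortalized line of human keratinocytes, they were 27 of 260 genes and 5 of 49 isoacceptors, because Ile-GAT was listed for the human cells and not for the mouse cells.

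The study compared 4 groups of 3 libraries. MEF cells were given 100 nM halofuginone (HF), which inhibits prolyl-tRNA synthetase, or were left untreated (NT), both in medium with dialyzed fetal bovine serum for 6 h by the labels, while the figure legends of the study name a shorter time for HF. NTERT cells were exposed to 400 J/m2 of UV-B and left to recover for 3 h, or were left untreated. Each cell type was a single line, and the study calls the libraries biological replicates without naming separate cultures in the labels, so p-values measure the spread between these libraries. In the charging assay, periodate and a basic solution remove the last base of a tRNA without an amino acid, whereas the amino acid protects a charged tRNA. Reads that end in CCA were therefore counted as charged and reads that end in CC as uncharged, and charging is the charged reads as a percentage of both.

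Libraries held 617693 to 3013132 tRNA reads in untreated MEF, 1922139 to 6286863 in HF-treated MEF, 253693 to 1992671 in untreated NTERT and 312283 to 1583619 in UV-B-treated NTERT cells. Of all reads, 3.43 to 9.52% aligned to tRNA genes in untreated MEF and 19.1 to 27.8% in HF-treated MEF, so the MEF groups differed in this respect with no overlap. The corresponding values were 1.33 to 4.66% and 1.53 to 3.71% in NTERT cells. For the 4 isoacceptors with enough reads, the charging value of a library rested on 521 to 76897 reads with an end in MEF and 233 to 14419 in NTERT cells. The 95% Wilson intervals of these values were 0.311 to 8.44 percentage points wide in MEF and 1.10 to 12.2 in NTERT cells, and they cover counting error only, since the reads carry no molecular identifiers and may be copies of each other.

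Valyl-tRNA synthetase charges all valine tRNAs, which read the codons that start with GT, and isoleucyl-tRNA synthetase charges the isoleucine tRNAs and removes valine that it has attached by mistake. Both amino acids are branched-chain amino acids that animal cells take from their medium. In Val-AAC and Ile-AAT, the A at the start of the anticodon is converted to inosine in the mature tRNA, which lets the tRNA pair with several codons and is read as G when the RNA is copied into DNA. Val-CAC and Val-TAC read codons that end in G or A.

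The most frequent human sequence of each valine isoacceptor is shown because it tells how far their reads can be told apart. The genes were found in the GRCh38 genome by their cloverleaf fold, 5′ to 3′ and without the CCA that is added after transcription, and capitals mark the anticodon.
Val-AAC: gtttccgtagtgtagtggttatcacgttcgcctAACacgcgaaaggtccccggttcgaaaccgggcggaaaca
Val-CAC: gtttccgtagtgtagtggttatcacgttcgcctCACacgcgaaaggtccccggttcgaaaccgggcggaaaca
Val-TAC: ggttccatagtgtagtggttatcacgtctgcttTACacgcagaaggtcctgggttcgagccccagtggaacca

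The Val-AAC sequence occurred in 5 copies, of which the copy printed lies at chr3:169772230-169772302 on the plus strand, outside the genes of the GENCODE annotation. The Val-CAC sequence occurred in 8 copies, and the printed copy lies at chr1:121020729-121020801 on the minus strand, in an intron of the lncRNA gene PDE4DIPP4. The Val-TAC sequence, found in 2 copies, is given from chr11:59550629-59550701 on the minus strand, opposite an intron of a lncRNA gene. The Val-AAC and Val-CAC sequences were identical at 72 of 73 bases (98.6%), and the sole difference was A34C, with positions counted from 1 at the 5′ end and the Val-AAC base given before the Val-CAC base. Their last 30 bases were the same. Val-TAC differed from either at 16 of 73 bases, 8 of them among the last 30. Thus, for the sequences printed, reads of Val-AAC and Val-CAC that do not cover the anticodon carry the same letters. In reads that cover it, inosine of Val-AAC would be read as G, which is neither the A nor the C of the printed sequences. How such reads were assigned to genes was not tested. Reads of the printed Val-TAC sequence can be told from them near the 3′ end. The less frequent human sequences and the mouse genes were not compared. The search found 9 loci with 5 sequences for Val-AAC, 17 with 8 for Val-CAC and 4 with 3 for Val-TAC. The human reads were assigned to 6 Val-AAC and 4 Val-TAC genes, and the study removed duplicate sequences from its human reference. The search may therefore have missed some sequences. The names in the count files were not tied to these loci.

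In untreated MEF, charging varied widely between libraries. Val-AAC was charged at 59.6%, 45.2% and 83.4% in libraries 1 to 3. Val-CAC was charged at 56.5%, 41.0% and 83.3%. Val-AAC and Val-CAC thus ran side by side, low in library 2 and high in library 3. Val-TAC had 79.0%, 68.1% and 87.3%, and Ile-AAT had 79.0%, 58.3% and 87.4%, again lowest in library 2 and highest in library 3. The means were 62.8% ± 19.3 for Val-AAC, 60.3% ± 21.4 for Val-CAC, 78.1% ± 9.63 for Val-TAC and 74.9% ± 15.0 for Ile-AAT (SD, n = 3). The means of the 48 isoacceptors tested in MEF had a median of 69.1%, and by their means Val-TAC ranked 8, Ile-AAT 14, Val-AAC 30 and Val-CAC 35 of the 48, counted from the highest.

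To order the 4 isoacceptors, charged and uncharged reads were set against each other as a log2 ratio and compared within each library, so that what a library shares cancels. Over the 6 MEF libraries, Val-CAC lay below Val-TAC by a mean of 0.89 ± 0.60 on the log2 scale (SD, n = 6), in 6 of 6 libraries, and below Ile-AAT by 0.68 ± 0.56, also in 6 of 6. Val-AAC lay below Val-TAC by 0.78 and below Ile-AAT by 0.57, each in 5 of 6 libraries. Of these 4 differences, none passed the exact two-sided permutation test over the signs of the 6 libraries after adjustment over the 6 pairs (adjusted p = 0.0938 for each, where the smallest unadjusted p is 0.0313). Val-AAC and Val-CAC differed by 0.11 ± 0.19 (adjusted p = 0.263, exact permutation test), and Val-TAC and Ile-AAT by 0.21 ± 0.44 (adjusted p = 0.344, exact permutation test), so the members of neither pair differed beyond their spread. When each gene of an isoacceptor was given the same weight, the direction against Ile-AAT turned, with Val-AAC above it by 1.09 and Val-CAC by 1.02. These weights count Ile-AAT-2-1 as much as the main Ile-AAT gene. It had 0.195% of the Ile-AAT reads, with 3 to 4 reads with an end per NT library and 5 to 8 per HF library.

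**Figure D1:**
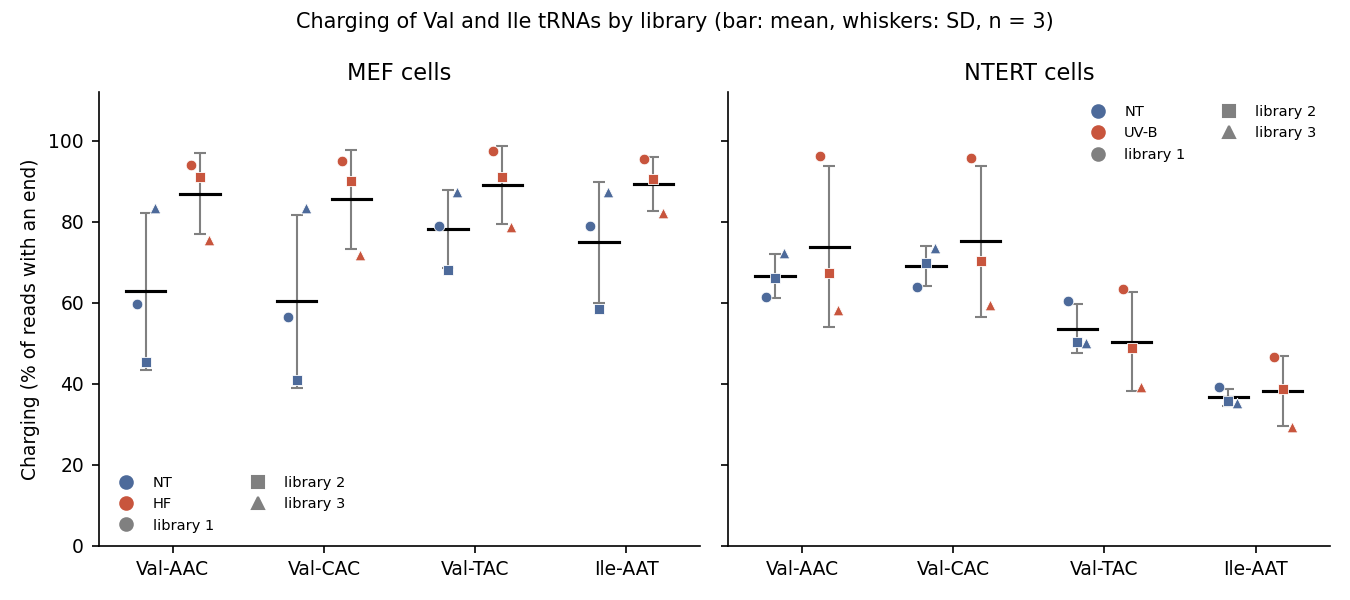
Charging of the 4 isoacceptors in MEF (left) and NTERT cells (right), as the percentage of reads with an end that end in CCA, with each library as a point (circle, square and triangle for libraries 1, 2 and 3), horizontal bars for means and whiskers for SD. The MEF groups overlap for each isoacceptor, since HF library 3 lies below NT library 3, and UV-B library 1 lies near 96% for Val-AAC and Val-CAC, above the other NTERT libraries.

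HF was compared with NT to see how charging of tRNAs other than those for proline moved when prolyl-tRNA synthetase was inhibited. Under HF, Val-AAC was charged at 94.1%, 91.1% and 75.5%, and Val-CAC at 94.9%, 90.1% and 71.7%. Libraries 1 and 2 of HF exceeded every NT library, whereas HF library 3 lay below NT library 3 for both. Val-TAC had 97.4%, 91.1% and 78.6%, and Ile-AAT had 95.4%, 90.5% and 82.1%, with the same order of libraries and the same overlap of the groups. Groups without overlap were seen for 29.2% of the isoacceptors tested, and for none of these 4. This log2 ratio rose under HF by 2.12 for Val-AAC (95% interval 0.69 to 3.55) and by 2.19 for Val-CAC (0.76 to 3.62), each with an adjusted p of 0.0271 in limma. Val-TAC, with a change of 1.57 (0.14 to 3.00), and Ile-AAT, with 1.54 (0.11 to 2.97), did not pass (adjusted p = 0.10 for both). The SE was 0.73 in each case, since limma gave all isoacceptors the same spread here. This spread was pooled over the isoacceptors as if they varied independently. They shared shifts between libraries, for which these intervals and p-values do not allow.

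The calls of 2 of the 4 stand beside 9 of the 48 isoacceptors tested, or 18.8%, that passed in either direction, and 12.5% that passed upward. The 3 downward calls were the proline tRNAs. Of the 48 isoacceptors, 45 were higher under HF, with a median change of 1.21, whereas the median of the 4 was 1.84, and Val-CAC and Val-AAC ranked 2 and 4 by their change. When the median of each library was subtracted, the changes fell to 0.83 for Val-CAC (95% interval -0.29 to 1.96), 0.76 for Val-AAC (-0.17 to 1.69), 0.21 for Val-TAC and 0.18 for Ile-AAT. None of the 4 passed then (adjusted p = 0.523 for Val-AAC and Val-CAC in limma, and 0 of the 4 at an unadjusted p under 0.05), beside 6.25% of the 48, which were the 3 proline tRNAs. The rise of Val-AAC and Val-CAC was hence not distinguished from the rise shared by most isoacceptors. The library medians of the log2 ratio were 0.33 to 2.06 in NT and 1.90 to 3.19 in HF. The groups overlapped in these medians but not in the share of reads on tRNA genes. In NT libraries 1 to 3, shares of 9.52%, 4.79% and 3.43% went with medians of 1.36, 0.33 and 2.06, so the lowest share had the highest median. In HF libraries 1 to 3, shares of 27.8%, 24.9% and 19.1% went with medians of 3.19, 2.73 and 1.90, in the same order. The part of the share on tRNA genes in the result was not tested.

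The calls of Val-AAC and Val-CAC also depended on single libraries. With NT library 1 or 2 or HF library 1 or 2 left out, the change ranged from 1.54 to 2.06 for both and did not pass (adjusted p = 0.165 to 0.246). Without NT library 3, the changes were 2.85 for Val-AAC and 2.99 for Val-CAC, and both passed. Val-TAC with 1.99 (adjusted p = 0.0272) and Ile-AAT with 2.07 (adjusted p = 0.0229) passed as well in limma, among 22 isoacceptors called. Without HF library 3, the changes were 2.80 for Val-AAC and 2.98 for Val-CAC, and both passed. Val-TAC with 2.38 (adjusted p = 0.0101) and Ile-AAT with 2.08 (adjusted p = 0.0302) passed as well in limma, among 17 isoacceptors called. In a test of the percentages after the study's methods, Val-AAC differed by 24.1 and Val-CAC by 25.3 percentage points, with no isoacceptor past the threshold.

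**Figure D2:**
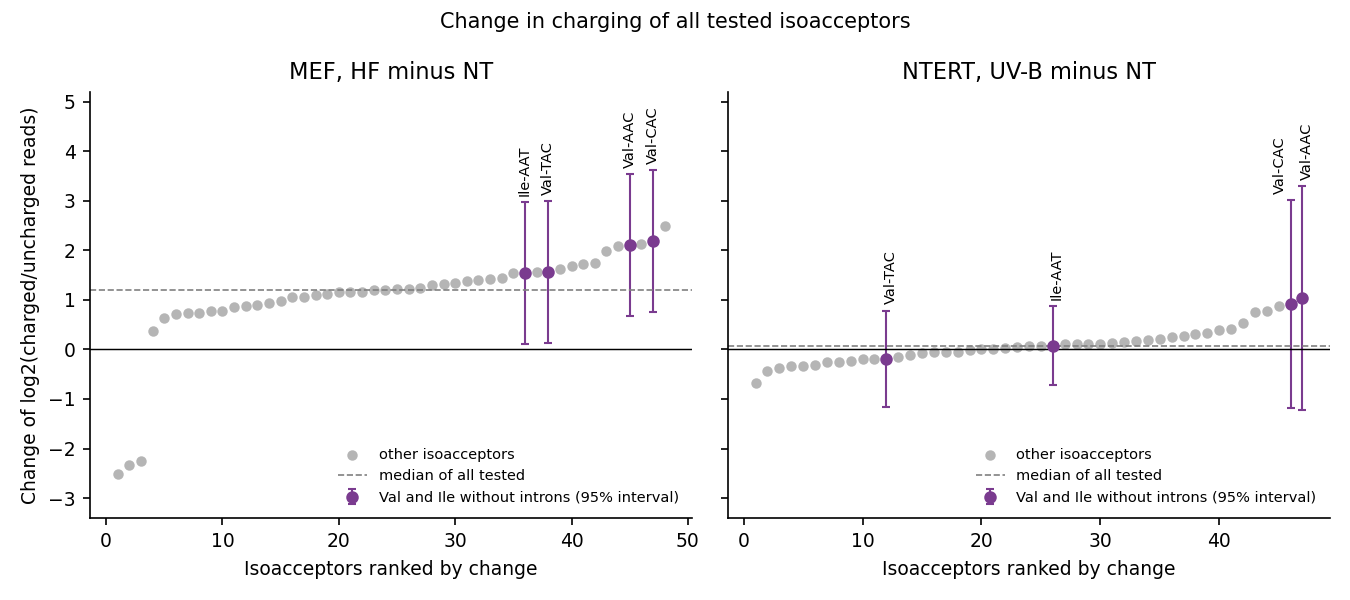
Change of the log2 ratio of charged against uncharged reads for each tested isoacceptor, ranked from the lowest to the highest, for HF minus NT in MEF (left) and UV-B minus NT in NTERT cells (right). The 4 Val and Ile isoacceptors are in purple with their 95% intervals, others are in grey, the dashed line is the median of all tested, and the 3 grey points far below in MEF are the proline tRNAs.

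Whether HF moved these isoacceptors by different amounts was tested for the 6 pairs. The change of Val-CAC exceeded that of Ile-AAT by 0.65 and that of Val-TAC by 0.62 on the log2 scale. The change of Val-AAC exceeded that of Ile-AAT by 0.57 and that of Val-TAC by 0.55. For these 4 pairs, the exact permutation test over the 20 labelings of the libraries, whose smallest p is 0.1, gave adjusted p-values of 0.40 to 0.45. Val-AAC and Val-CAC differed in their change by -0.07 and Val-TAC and Ile-AAT by 0.03 (adjusted p = 0.96 and 1, exact permutation test). With 3 libraries a group, the design cannot reach 0.05 in this test.

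The share of all tRNA reads was examined as a measure of abundance in the library. Val-AAC took 0.393%, 0.439% and 0.303% of the tRNA reads in NT and 0.985%, 0.583% and 0.698% in HF. Val-CAC took 0.763%, 0.817% and 0.558% in NT and 1.88%, 0.967% and 1.31% in HF. The groups did not overlap for either tRNA before or after TMM scaling, as for 27.1% of the 48 isoacceptors after it. HF library 1 was the highest for both. After TMM scaling, the share rose by 1.13 (95% interval 0.45 to 1.82) for Val-AAC and by 1.08 (0.39 to 1.76) for Val-CAC on the log2 scale, with an adjusted p of 0.0236 in limma for each. Of the 48 isoacceptors, 14.6% passed in either direction and 12.5% upward, and Val-AAC and Val-CAC had the highest and the next highest change of the 48. In bulk libraries, a higher share of one tRNA cannot be told apart from a lower share of others.

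Ile-AAT took 0.102%, 0.0916% and 0.0843% in NT and 0.202%, 0.108% and 0.118% in HF. Its groups did not overlap, as was the case for 27.1% of the 48, but its change of 0.72 did not pass (adjusted p = 0.168 in limma) and was 0.22 without HF library 1. Val-TAC took 0.770%, 0.711% and 0.609% in NT and 2.08%, 0.600% and 0.682% in HF. Its change of 0.60 (95% interval -0.08 to 1.29) rested on HF library 1, and without that library the change was -0.19. The calls of Val-AAC and Val-CAC were lost without any library except HF library 2. Their changes were 0.70 and 0.61 without HF library 1, 1.19 and 1.16 without NT library 1, 1.14 and 1.08 without NT library 2, 1.06 and 0.99 without NT library 3, and 1.06 and 0.98 without HF library 3. They were also lost with library totals in place of TMM scaling, where the changes were 0.98 and 0.92 (adjusted p = 0.107). The direction of both was the same with every scaling and every library left out. Shares were not corrected for the length of the tRNAs.

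**Figure D3:**
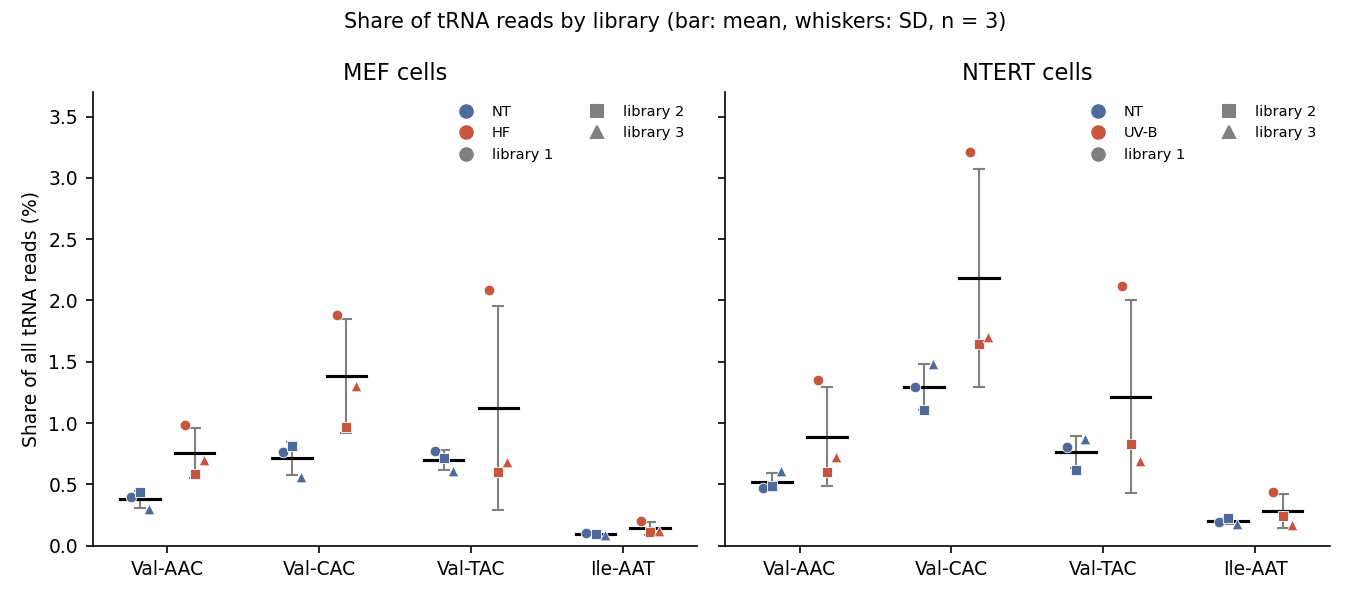
Share of all tRNA reads (%) taken by each isoacceptor in MEF (left) and NTERT cells (right), before TMM scaling, with each library as a point, bars for means and whiskers for SD. In MEF, the NT and HF libraries do not overlap for Val-AAC, Val-CAC and Ile-AAT, and library 1 of HF and of UV-B is the highest for each isoacceptor.

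Within the valine tRNAs, the proportions were more even between libraries. Val-CAC made up 39.7% ± 1.78 of the valine reads in NT and 43.9% ± 5.39 in HF, Val-TAC 39.2% ± 2.72 and 31.8% ± 8.99, and Val-AAC 21.1% ± 1.04 and 24.3% ± 3.87 (SD, n = 3). Val-CAC had 1.84 to 1.94 reads for each read of Val-AAC in NT and 1.66 to 1.91 in HF. There were 17.4 to 21.5 valine reads for each Ile-AAT read in NT and 19.9 to 24.6 in HF. All these ranges overlapped between the groups.

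A charging value covers only reads that end in CCA or CC, and this portion differed between the isoacceptors. In the NT libraries, 78.6%, 72.9% and 87.0% of the Val-AAC reads and 80.2%, 70.7% and 88.3% of the Val-CAC reads had such an end. In the HF libraries, the values were 95.1%, 92.9% and 94.1% for Val-AAC and 95.5%, 92.3% and 93.7% for Val-CAC. Each HF library thus exceeded each NT library for both, as for 72.9% of the 48 isoacceptors. Val-TAC had an end in 95.9 to 98.3% of its reads in NT and 98.4 to 99.7% in HF, and Ile-AAT in 92.0 to 97.9% and 97.8 to 99.0%. On the log2 scale of reads with an end against reads without, all 4 rose, Val-AAC by 1.98 (adjusted p = 0.000386), Val-CAC by 1.89 (0.000500), Val-TAC by 1.67 (0.00239) and Ile-AAT by 1.40 (0.00833) in limma. The rise was general, since 79.2% of the 48 isoacceptors passed. After the library median was subtracted, none of the 4 passed (adjusted p = 0.134 for Val-AAC and 0.163 for Val-CAC), and of all 48 none did either, with 13 at an unadjusted p under 0.05, Val-AAC and Val-CAC among them. Without NT library 2, the calls of Val-TAC, with 1.36, and of Ile-AAT, with 0.83, were lost, and without HF library 1 they were lost with 0.92 and 1.09.

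**Figure D4:**
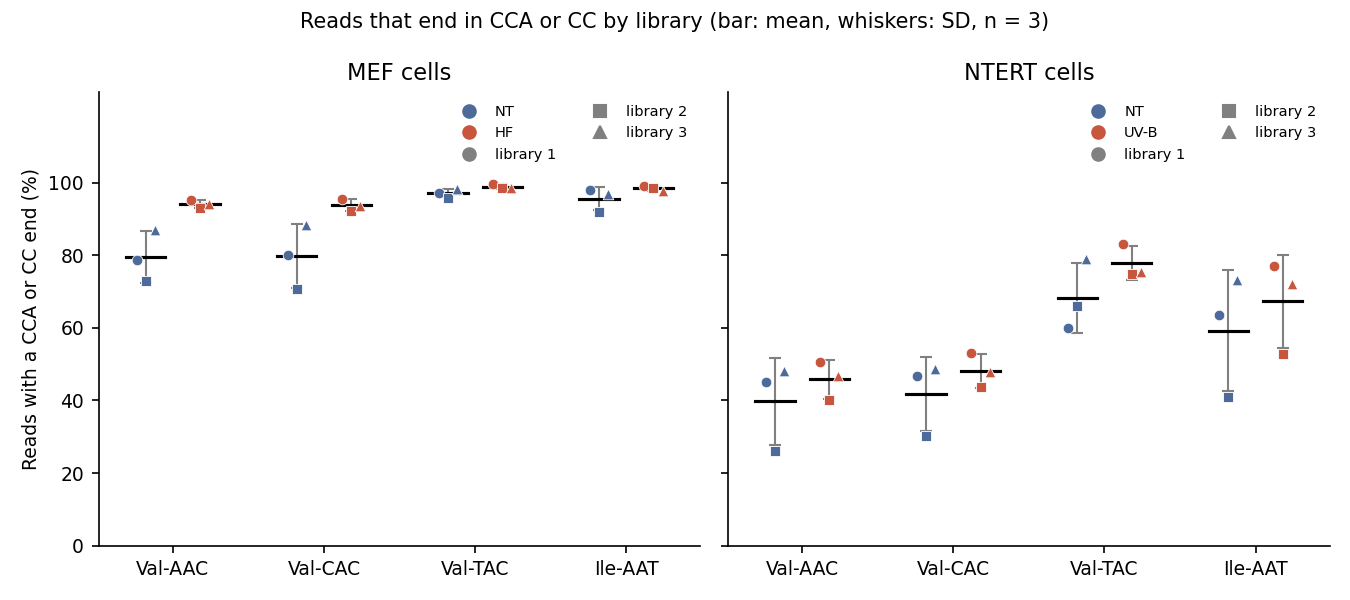
Percentage of the reads of each isoacceptor that end in CCA or CC in MEF (left) and NTERT cells (right), with each library as a point, bars for means and whiskers for SD. Val-AAC and Val-CAC have fewer reads with an end than Val-TAC in every library of both cell types.

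Few genes supplied most of the reads. In MEF, Val-CAC-2-1 gave 84.2% of the Val-CAC reads, Ile-AAT-1-1 gave 90.4% of the Ile-AAT reads and Val-TAC-1-1 was the sole Val-TAC gene listed. Val-AAC was shared among 5 genes, with Val-AAC-1-1 at 39.4%, Val-AAC-5-1 at 24.9% and Val-AAC-2-1 at 14.7%. Val-AAC-6-1 and Val-CAC-7-1 had no reads in any of the 6 libraries. Near-identical genes can share reads, so the values of single genes are uncertain.

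Of the 17 mouse genes, 11 had enough reads to be tested, and the 11 were all higher under HF, by 1.51 to 2.38 on the log2 scale. Among them, 5 passed in limma, namely Val-CAC-1-1 with 2.38, Val-CAC-2-1 with 2.29, Val-AAC-1-1 with 2.29, Val-AAC-2-1 with 2.27 (adjusted p = 0.0311 for each) and Val-AAC-5-1 with 2.13 (adjusted p = 0.0404). The background was 14.4% of the 139 genes tested in either direction and 11.5% upward. Val-CAC-3-1 with 1.74 (adjusted p = 0.0894), Val-TAC-1-1 with 1.57 (0.120) and Ile-AAT-1-1 with 1.51 (0.131) did not pass, nor did Ile-AAT-3-1 with 1.94 (0.0578). After the library median was subtracted, none of the 11 passed (adjusted p = 0.537 to 0.916 in limma), beside 3.6% of the 139. With NT library 1 or 2 or HF library 1 or 2 left out, none of these genes passed. Without NT library 3 all 11 did, among 71 of the 139 genes tested. Without HF library 3 all 11 did as well, among 42 of the 139.

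Genes of the same anticodon were compared with the gene that had the most reads. Over the 6 MEF libraries, the log2 ratio of Val-AAC-2-1 exceeded that of Val-AAC-1-1 by 0.26 ± 0.15, in 6 of 6 libraries, and that of Val-AAC-5-1 exceeded it by 0.01 ± 0.15. Val-AAC-3-1 exceeded it by 0.69 ± 0.53, in 5 of 6 libraries, and Val-AAC-4-1 by 0.12 ± 0.63, in 4 of 6. Val-CAC-1-1 exceeded Val-CAC-2-1 by 0.02 ± 0.17. Val-CAC-3-1 exceeded Val-CAC-2-1 by 0.59 ± 0.50, in 5 of 6 libraries, and Ile-AAT-3-1 exceeded Ile-AAT-1-1 by 0.84 ± 0.60, in 6 of 6 (SD, n = 6). Differences within an anticodon thus reached the size of those between isoacceptors, and they are given without a test.

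UV-B was compared with NT in NTERT cells to ask whether irradiation changes the charging of tRNAs. In the NT libraries, Val-AAC was charged at 61.4%, 66.2% and 72.3%, and Val-CAC at 63.8%, 69.9% and 73.5%. In the UV-B libraries, Val-AAC was charged at 96.1%, 67.3% and 58.1%, and Val-CAC at 95.7%, 70.3% and 59.5%. UV-B library 1 thus lay above all NT libraries, library 2 among them and library 3 below them. Val-TAC had 60.5%, 50.4% and 49.9% in NT and 63.3%, 48.8% and 39.1% in UV-B. Ile-AAT had 39.1%, 35.6% and 35.2% in NT and 46.5%, 38.7% and 29.3% in UV-B, with the UV-B libraries on both sides of the NT libraries for either tRNA.

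None of the 4 changes passed in NTERT cells. The change was 1.04 (95% interval -1.22 to 3.30) for Val-AAC, 0.92 (-1.19 to 3.02) for Val-CAC, -0.19 (-1.16 to 0.79) for Val-TAC and 0.08 (-0.72 to 0.88) for Ile-AAT on the log2 scale, each with an adjusted p of 0.986 in limma. Of the 47 isoacceptors tested, 0% passed, with 0 at an unadjusted p under 0.05 and 4.26% without overlap of the groups, and the test of the percentages and a quasi-binomial regression called none. Val-AAC and Val-CAC had the highest and next highest change of the 47, which rested on UV-B library 1. Without that library, the changes were -0.25 for Val-AAC, -0.27 for Val-CAC, -0.57 for Val-TAC and -0.18 for Ile-AAT. In UV-B library 1, the log2 ratio lay above the median of the other 5 libraries by 3.67 for Val-AAC and 3.25 for Val-CAC, ranks 2 and 3 of the 47 after iMet-CAT, against 0.79 for Val-TAC and 0.65 for Ile-AAT, where the median of the 47 was 0.71. The intervals include changes in either direction, and the spread of UV-B, with SD of 19.9 percentage points for Val-AAC and 18.6 for Val-CAC, was above that of NT, with 5.47 and 4.90.

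The 4 isoacceptors differed in their level of charging in NTERT cells. The means in NT were 69.1% ± 4.90 for Val-CAC, 66.6% ± 5.47 for Val-AAC, 53.6% ± 5.97 for Val-TAC and 36.6% ± 2.13 for Ile-AAT (SD, n = 3), at ranks 8, 11, 22 and 34 of the 47 isoacceptors, whose median was 50.8%. Over all 6 libraries, the log2 ratio of Val-CAC exceeded that of Val-TAC by 1.51 ± 1.15 and that of Ile-AAT by 2.38 ± 1.16. Val-AAC exceeded Val-TAC by 1.41 ± 1.28 and Ile-AAT by 2.28 ± 1.29, and Val-TAC exceeded Ile-AAT by 0.87 ± 0.24 (SD, n = 6). Each of these 5 differences had the same sign in 6 of 6 libraries, with an adjusted p of 0.0375 in the exact two-sided permutation test over the 6 pairs, where the smallest unadjusted p is 0.0313. Val-AAC and Val-CAC differed by -0.10 ± 0.15 (adjusted p = 0.188, exact permutation test). In the NT libraries alone, the same 5 differences were 0.96, 1.96, 0.80, 1.80 and 1.00. The order thus ran from Val-CAC and Val-AAC, which did not differ beyond their spread, to Val-TAC and then to Ile-AAT.

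This order was not that of MEF, where Val-CAC had the lowest mean of the 4 in NT. The cells are of different species, with different references, and the difference between the cell types was not tested. With equal weights, where genes with few reads count as much as the main genes, Val-CAC minus Val-TAC was -0.02 in NTERT cells. With these weights, Val-AAC exceeded Val-TAC by 0.64 (adjusted p = 0.075), Val-AAC exceeded Val-CAC by 0.66 (adjusted p = 0.0469, exact permutation test), and the 3 valine tRNAs still exceeded Ile-AAT. The changes under UV-B differed between the 6 pairs by -0.26 to 1.23, with adjusted p-values of 0.70 for each in the exact permutation test, whose smallest p is 0.1.

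Val-AAC took a share of 0.467%, 0.490% and 0.607% in NT and 1.35%, 0.598% and 0.719% in UV-B. Val-CAC took 1.29%, 1.11% and 1.48% in NT and 3.21%, 1.65% and 1.70% in UV-B. Val-CAC of UV-B lay above NT in all libraries before TMM scaling but not after it, as for all but 4.17% of the 48 isoacceptors, and UV-B library 1 was the highest of the 6. Val-TAC took 0.807%, 0.619% and 0.870% in NT and 2.12%, 0.831% and 0.690% in UV-B, and Ile-AAT 0.192%, 0.225% and 0.177% in NT and 0.439%, 0.239% and 0.168% in UV-B. The changes after TMM scaling were 0.65 for Val-CAC, 0.64 for Val-AAC, 0.45 for Val-TAC and 0.36 for Ile-AAT, with adjusted p-values of 0.546 to 0.653 in limma. No isoacceptor passed (0% of 48), with 4 at an unadjusted p under 0.05, none of them among these. All members together made up 2.46 to 3.14% of the tRNA reads in NT and 7.14%, 3.32% and 3.28% in UV-B.

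Ile-GAT had few reads. The single gene Ile-GAT-1-1 had 41, 39 and 50 reads in NT and 64, 45 and 70 in UV-B, of which 3 to 13 had an end. These were under the minimum for charging, and its change in share of 0.73 (95% interval -0.45 to 1.92) did not pass (adjusted p = 0.546 in limma).

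Reads with an end were fewer in NTERT cells than in MEF. For Val-AAC, they made up 45.0%, 26.1% and 48.1% of the reads in NT and 50.5%, 40.1% and 46.8% in UV-B, and for Val-CAC 46.7%, 30.1% and 48.8% in NT and 53.1%, 43.7% and 47.8% in UV-B. Charging of these 2 tRNAs in NTERT cells thus rested on a minority of their reads in 5 of 6 libraries, with UV-B library 1 as the exception. Val-TAC had an end in 60.0 to 78.8% of reads in NT and 74.7 to 83.2% in UV-B, and Ile-AAT in 40.9 to 73.2% and 52.9 to 77.1%. The changes of 0.39 to 0.68 on the log2 scale did not pass for any of the 4 (adjusted p = 0.719 to 0.753), and no isoacceptor of the 47 did, with 3 at an unadjusted p under 0.05 in limma.

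In NTERT cells, Val-AAC-1-1 gave 54.0%, Val-AAC-2-1 31.6% and Val-AAC-3-1 8.50% of the Val-AAC reads. Val-CAC-1-1 gave 58.5% of the Val-CAC reads, with Val-CAC-2-1 next and Val-CAC-4-1 after it at 7.03%. Val-TAC-1-1 gave 54.6%, Val-TAC-2-1 28.0% and Val-TAC-4-1 9.32% of the Val-TAC reads. Ile-AAT was spread over 10 genes, and Ile-AAT-5-1, Ile-AAT-8-1 and Ile-AAT-7-1, which led, gave 22.8%, 15.5% and 14.2%. Of the 27 human genes, 20 had enough reads to be tested and none passed, as for all 168 genes tested in limma, of which 3 had an unadjusted p under 0.05, none of them among the 20.

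UV-B library 1 stood apart in each leading gene of Val-AAC and Val-CAC. Val-AAC-1-1 was charged at 58.8%, 64.7% and 73.2% in NT and at 97.1%, 67.0% and 57.0% in UV-B. Val-CAC-1-1 was charged at 58.9%, 70.4% and 74.1% in NT and at 97.1%, 69.2% and 54.5% in UV-B. Val-CAC-2-1 had 70.3%, 71.9% and 72.4% in NT and 93.3%, 72.5% and 73.9% in UV-B, so that it did not share the low value of Val-CAC-1-1 in UV-B library 3. The change of Val-CAC-2-1 was 0.90 with all libraries and 0.12 without UV-B library 1, whereas that of Val-CAC-1-1 was 1.08 and turned to -0.38. Val-TAC-4-1 stood above Val-TAC-1-1 in 6 of 6 libraries, by 1.48 ± 0.77 on the log2 scale (SD, n = 6), with 72.5%, 70.3% and 73.4% in NT and 93.9%, 71.1% and 58.4% in UV-B. In Val-TAC-4-1, as in Val-AAC and Val-CAC, UV-B library 1 was the highest by far, unlike in Val-TAC-1-1, which had 65.3%, 48.9% and 41.6% in UV-B. On average, 44% of the Val-TAC-4-1 reads in NT and 46.0% in UV-B had an end. The corresponding means were 68.9% and 78.1% for Val-TAC-1-1, 44.2% and 51.0% for Val-AAC-1-1, and 44.1% and 51.6% for Val-CAC-1-1. Among the Ile-AAT genes, Ile-AAT-5-1 had 38.9%, 38.1% and 34.8% in NT and 53.2%, 41.5% and 29.5% in UV-B.

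**Figure D5:**
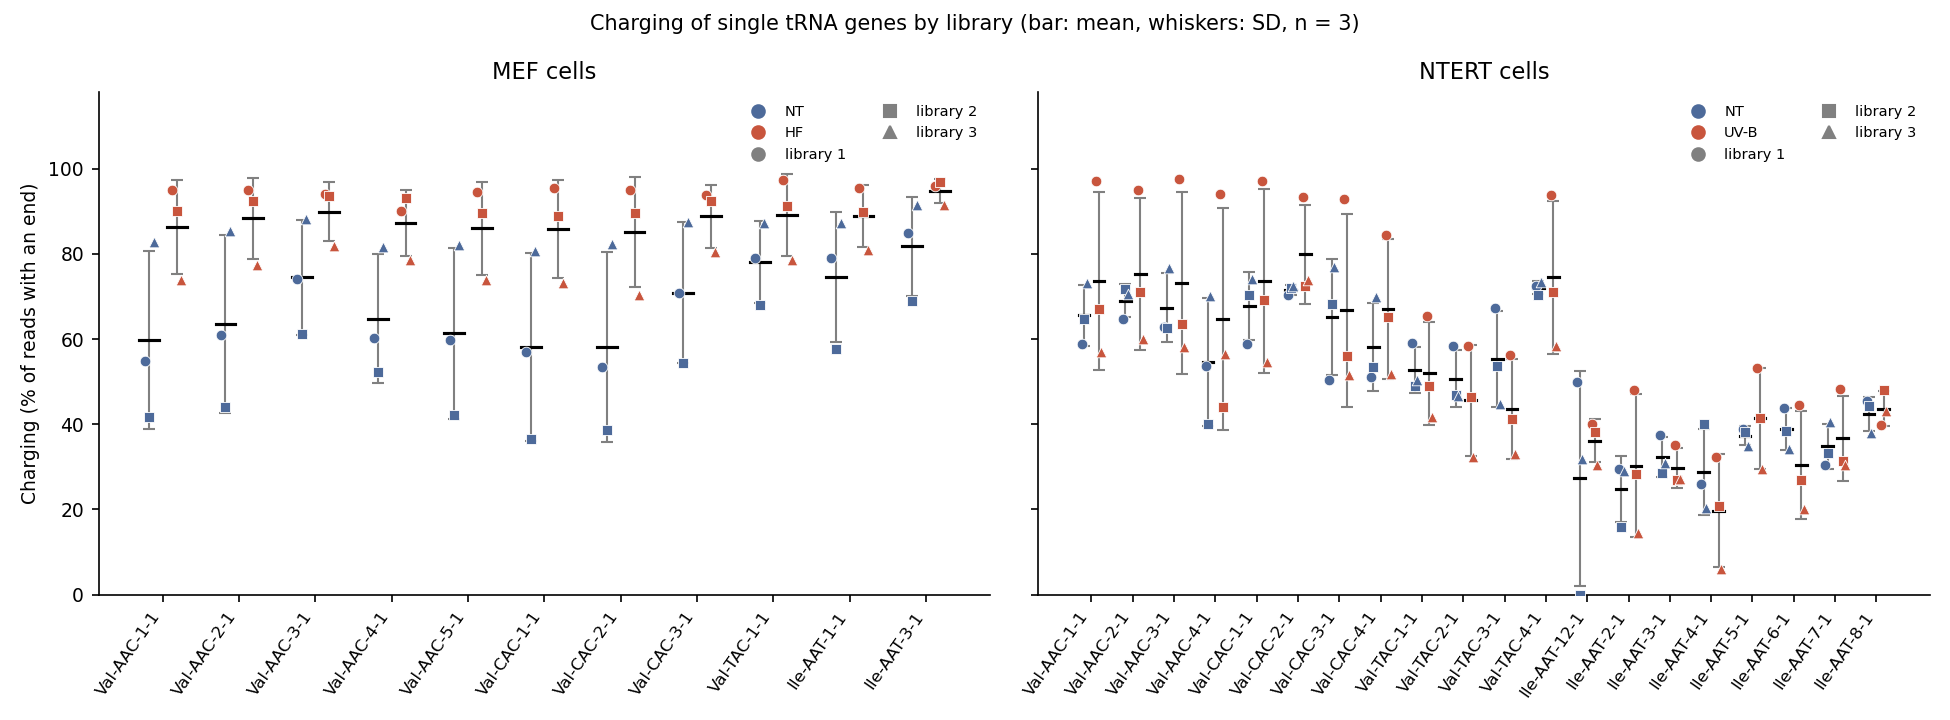
Charging of each tested gene of the 4 isoacceptors in MEF (left, 11 genes) and NTERT cells (right, 20 genes), as the percentage of reads with an end that end in CCA, with each library as a point, bars for means and whiskers for SD. In MEF, NT library 2 is the lowest of the 6 libraries for all 11 genes and HF library 3 the lowest of HF, and in NTERT cells the Val-AAC and Val-CAC genes and Val-TAC-4-1 lie above the Ile-AAT genes in most libraries.

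Charging over the 6 libraries of a cell type was compared between isoacceptors by the root mean square difference of the log2 ratio. This difference takes in the level of charging as well as its pattern over the libraries. Val-AAC and Val-CAC were nearest to each other, with 0.21 in MEF and 0.17 in NTERT cells. Reads of their printed human sequences that miss the anticodon cannot be told apart, and a G read from inosine matches neither sequence. The part of either kind of read in this nearness was not tested. Outside the Val and Ile tRNAs, Val-AAC was nearest to Ala-AGC (0.48), Phe-GAA (0.54) and Ala-TGC (0.59) in MEF, and Val-CAC to Ala-AGC (0.46), Ala-TGC (0.60) and Glu-CTC (0.66), where the median over the 44 others was 1.05 and 1.18. Val-TAC in MEF was nearest to Lys-TTT (0.62), Ala-TGC (0.65) and iMet-CAT (0.66), and Ile-AAT to Ala-CGC (0.32), Trp-CCA (0.42) and Met-CAT (0.43). In NTERT cells, Met-CAT, Glu-TTC and Lys-TTT were nearest to both Val-AAC (0.67, 0.85 and 1.04) and Val-CAC (0.56, 0.87 and 0.92), against a median of 2.13 over the 43 others. Val-TAC was nearest there to Arg-CCG (0.39), Arg-TCG (0.40) and Leu-TAA (0.46), and Ile-AAT to Arg-TCT (0.22), Thr-CGT (0.24) and Gln-TTG (0.25). For neither Val-AAC nor Val-CAC was an isoacceptor among the 3 nearest in both cell types.

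The other tRNAs for branched-chain amino acids, the 5 leucine isoacceptors and Ile-TAT, were used for comparison. In MEF, these 6 were all higher in charging under HF, by 0.64 to 1.57 on the log2 scale with a median of 1.14, and none passed, beside 2 of the 4 described here and 18.8% of all 48. With the library median subtracted, none of the 6 and none of the 4 passed. In share of reads the 6 were lower under HF, with a median change of -0.52 and 1 call, Leu-CAA, while the 4 were higher with a median of 0.90 and 2 calls, and all 48 had a median of 0.09. A list of 8 isoacceptors whose anticodon starts with an A known to become inosine, which includes Val-AAC and Ile-AAT but not Gly-ACC, had 7 with higher charging under HF. Of these, Ala-AGC and Val-AAC passed, and Pro-AGG passed downward. In NTERT cells, the median change in charging was 0.14 for the 6 branched-chain neighbours, -0.03 for the 8 and 0.50 for the 4, with no call in any. The lists and the members are described by these counts and medians only, and no difference between them was tested.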

How the data were processed

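tRNA-charging libraries of MEF and NTERT cells were analyzed, with 3 libraries in each of 4 groups taken from the sample labels. The authors separated the reads by adapter barcode, trimmed them (cutadapt in the methods, Trim Galore in the processing notes), aligned them with bowtie2 to tRNA genes with CCA added, human ones from the high-confidence GRCh38 set, and deposited read counts per gene, not normalized, as other values in a colon-separated layout without column names. The mouse reference is not given in the sources used here. The numbers were read as all, charged and uncharged reads. Unaligned reads and 2 yeast sequences were left out.

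Reads were summed by isoacceptor. Charging was tested with limma 3.58.1 (R 4.3.3) on log2((charged + 0.5)/(uncharged + 0.5)) for features with a mean of at least 50 reads with an end. Share of reads was tested on log2 shares after TMM scaling (trims of 30% and 5%), and the reads with an end against those without in the same manner. Over all features tested in a cell type, Benjamini-Hochberg adjustment was used, with a threshold of 0.05. For charging and share of reads in MEF, limma gave all features of a test the same spread, as if they varied independently. Pairs of isoacceptors were compared with two-sided exact permutation tests, adjusted over 6 pairs. The count models listed as alternatives were not run, because the layout kept the unit from being checked. The scripts were run on simulated data with independent noise for each isoacceptor and no shift shared within a library. Those runs do not show how often calls are false in the present data. Human genes were found in GRCh38 by a cloverleaf of 17 stem positions with at most 2 unpaired. A mouse genome was not used here. The sequence and position of the Ile-AAT genes are not reported here.

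Named were all members, the 3 genes of each anticodon with the most reads, genes past the threshold, and the 3 nearest isoacceptors by charging. Val-AAC-3-1 and Val-AAC-4-1 in MEF, Val-AAC-6-1 and Val-CAC-7-1 (without reads in MEF) and Gly-ACC were named after their values were seen. Ser-TGA was named for the result that the study reports. The members and lists were chosen with earlier results of these data known. Alternatives were other pseudocounts, minima, scalings, weights and tests, a replicate block, and leaving out each library. TMM factors from single genes or from the tested isoacceptors were added after seeing the data. Python 3.11.15 with pandas 2.3.3 and matplotlib 3.10.9 served for tables and plots.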

Additional observations from a re-analysis of the deposited data

How the results depend on the processing

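Under the alternatives tried, the changes of Val-AAC and Val-CAC in MEF kept their direction in charging, share of reads and share of reads with an end, but the calls of charging and share did not hold under all of them. With the library median subtracted, the changes in charging were 0.76 and 0.83, with 3 isoacceptors, 5 genes and 0 of these genes called in MEF, and the changes in reads with an end were 0.91, 0.81, 0.59 and 0.33 for Val-AAC, Val-CAC, Val-TAC and Ile-AAT, with 0 called. In the test of the percentages, the differences were 24.1 and 25.3 percentage points, and with quasi-binomial regression the changes were 0.95 and 0.84, with 0 called by either. In the share of reads, the changes of Val-AAC and Val-CAC were 0.98 and 0.92 with library totals, 1.00 and 0.95 with median-of-ratios scaling and 1.08 and 1.02 with TMM factors from single genes, each with 1 isoacceptor called in all and neither of these passing. With no minimum of reads, 4 were called and Val-CAC, with 1.08, did not pass, and with only reads with an end 3 were called. In NTERT cells, TMM factors from single genes gave 1 call in share of reads, which was none of these. Quasi-binomial regression turned the changes in charging to -0.059 for Val-AAC, -0.057 for Val-CAC and -0.024 for Ile-AAT. The cause of these differences was not tested.

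With equal weights for genes, Val-AAC and Val-CAC lay above Ile-AAT in MEF by 1.09 and 1.02, and in NTERT cells Val-AAC minus Val-CAC was 0.66, Val-CAC minus Val-TAC -0.020, Val-AAC minus Val-TAC 0.64, the change of Ile-AAT -0.014 and the change of Val-AAC minus that of Val-CAC -0.18. These weights give genes with few reads the same part as the main genes.

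Libraries with the same replicate number were correlated over the isoacceptors, after the mean of each group was removed. For charging, these correlations were -0.10, -0.11 and -0.03 in MEF and -0.35, 0.02 and -0.49 in NTERT cells. For share of reads, they were 0.16, 0.08 and -0.34 in MEF and -0.31, 0.59 and 0.53 in NTERT cells. For reads with an end, they were 0.04, 0.08 and 0.14 in MEF and -0.35, 0.29 and 0.37 in NTERT cells. Whether the numbers pair the libraries was not tested in any of these measures. With the replicate number as a block, the changes in charging were unaltered (2.12 for Val-AAC, 2.19 for Val-CAC) with 0 isoacceptors, 0 genes and 0 of these genes called in MEF, and with the library median subtracted as well they were 0.76 and 0.83, with 3 called. The block changed no call of these isoacceptors in share of reads, in reads with an end or in NTERT cells.

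Each library was then left out in turn. In MEF, the changes in charging ranged from 1.54 to 2.85 for Val-AAC, 1.54 to 2.99 for Val-CAC, 0.69 to 2.38 for Val-TAC and 0.92 to 2.08 for Ile-AAT, with 0 to 22 isoacceptors, 0 to 71 genes and 0 to 11 of these genes called. The change of Val-AAC minus that of Val-CAC ranged from -0.18 to 0.083, and turned positive without HF library 1, and Val-TAC minus Ile-AAT from -0.30 to 0.30, turning without NT library 1, NT library 3 or HF library 1. In reads with an end, the changes were 0.83 to 1.82 for Ile-AAT and 0.92 to 2.11 for Val-TAC, with 24 to 38 isoacceptors called. In share of reads, they were 0.70 to 1.26 for Val-AAC, 0.61 to 1.27 for Val-CAC, -0.19 to 0.89 for Val-TAC and 0.22 to 0.85 for Ile-AAT, with 1 to 9 called.

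In NTERT cells, the changes in charging ranged from -0.25 to 1.83 for Val-AAC, -0.27 to 1.68 for Val-CAC, -0.57 to 0.15 for Val-TAC and -0.18 to 0.36 for Ile-AAT. The change of Val-AAC minus that of Ile-AAT ranged from -0.075 to 1.49 and that of Val-CAC minus Ile-AAT from -0.094 to 1.33, both negative without UV-B library 1. The genes whose change turned had ranges of -0.23 to 2.10 (Val-AAC-1-1), -0.22 to 1.59 (Val-AAC-2-1), -0.40 to 1.90 (Val-AAC-3-1), -0.38 to 2.03 (Val-CAC-1-1), -0.44 to 0.26 (Val-TAC-1-1), -0.68 to 0.10 (Val-TAC-2-1), -0.47 to 1.23 (Val-TAC-4-1), -0.13 to 0.59 (Ile-AAT-5-1), -0.25 to 0.29 (Ile-AAT-7-1) and -0.070 to 0.18 (Ile-AAT-8-1). In reads with an end, the changes were -0.044 to 0.65 for Val-AAC and -0.033 to 0.98 for Ile-AAT, negative without NT library 2, and 0 to 1 isoacceptors were called in share of reads.

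The count models edgeR and DESeq2 were not run, because the layout of the deposited values kept their unit from being checked. Depth limits Ile-AAT in NTERT cells, where the value of NT library 2 rested on 233 reads with an end and had a 95% interval 12.2 percentage points wide, against an SD of 2.13 between the NT libraries. Ile-GAT had too few reads with an end for a charging value.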
